A study of Rattus norvegicus with 3 samples.

Results

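The mTEC2 cells of the rat thymus are medullary epithelial cells for which Aire is a marker, though not an exclusive one. They were taken here as all cells of the stromal single-cell library to which the authors gave the label mTEC2, using the projected label where there was one and the cluster name otherwise. This gave 61 cells of 13226 annotated stromal cells, or 0.461% (exact Clopper-Pearson interval 0.353 to 0.592), and of 2295 cells with any epithelial label. They are set beside 482 cells labelled mTEC1 and 76 labelled mTEC-prol, the other main medullary epithelial labels.

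Thymi came from Lewis rats, an inbred strain, at 8 weeks of age, and the labels name no treatment or allele. Stromal cells, depleted of CD45-bearing blood cells, gave 1 droplet library. Thymocytes, the T cell precursors, gave a second library, and a 10 µm section gave a Stereo-seq map. Each kind of sample was measured once, so nothing here is tested between samples, and the comparisons describe this library and this section. Whether the stroma came from 1 animal or several is not given in the sources used here.

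Medullary thymic epithelial cells show self proteins to T cells that are about to leave the thymus. In a well-known scheme, mTEC1 cells attract thymocytes with Ccl21, while mTEC2 cells carry much class II MHC, costimulatory proteins and Aire. Aire, the autoimmune regulator, lets these cells transcribe genes that otherwise belong to single organs, such as insulin, and T cells that bind such products strongly are deleted or become regulatory T cells. RANK and CD40 are the receptors through which T cells and other cells are known to drive this state.

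The class II chains are defining transcripts of mTEC2, and their promoters are known to share boxes read by the factors that recruit Ciita, the class II transactivator. The 120 bases before the annotated start of the 4 classical chains are shown because these genes moved together below. The sequences are from RefSeq on build GRCr8 and are written along the strand of the gene. Capitals mark CTGATTGG, the core of the Y box, and TAGCAAC, the core of the X box.
RT1-Da, chr20:4515295-4515414, + strand: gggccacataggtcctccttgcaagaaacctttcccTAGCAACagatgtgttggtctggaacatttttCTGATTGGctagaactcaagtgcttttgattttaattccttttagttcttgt
RT1-Db1, chr20:4560163-4560282, - strand: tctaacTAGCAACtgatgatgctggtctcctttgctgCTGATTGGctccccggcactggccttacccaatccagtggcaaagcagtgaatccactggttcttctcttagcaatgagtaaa
RT1-Ba, chr20:4576937-4577056, + strand: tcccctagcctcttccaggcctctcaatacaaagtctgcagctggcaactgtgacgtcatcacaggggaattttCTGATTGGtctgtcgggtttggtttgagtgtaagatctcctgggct
RT1-Bb, chr20:4604119-4604238, - strand: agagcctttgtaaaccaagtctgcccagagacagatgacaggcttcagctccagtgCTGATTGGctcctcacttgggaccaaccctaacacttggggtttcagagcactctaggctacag

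All 4 windows held CTGATTGG in the direction of the gene, with its first base 46 to 83 bases before the start. Searched on both strands in windows of 300 bases around the start, these letters occurred in 1172 of 33469 promoters of the table, or 3.50%. Among genes listed below for presentation, they were in 5 of 12 class II promoters found and in 4 of 11 class I promoters. TAGCAAC was found in RT1-Da and RT1-Db1, with 25 and 24 bases between both boxes, and in 3.58% of all promoters. Other spellings of the boxes were not searched, so RT1-Ba and RT1-Bb are not shown to lack an X box. A match describes the letters and shows no binding. The files themselves use another build, mRatBN7.2, per the submitters' processing notes.

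The label went with its markers. Levels are given as CPM, the UMIs (unique molecular identifiers, 1 per captured RNA molecule) of a gene per 1000000 UMIs of the cells summed. Among 24 labels with at least 20 cells, Aire, Ccl22 and RT1-Da were each highest in mTEC2. Aire was found in 40 of the 61 cells and RT1-Da in 53. The cells held 891 to 39743 UMIs with a median of 13378, and 518 to 6939 genes with a median of 4200. By the authors' own clusters, 57 cells came from TEC-d, 3 from TEC-a and 1 from Endo-2. TEC-d also held 232 of the mTEC1 cells and 70 of the mTEC-prol cells, so the label does not follow a cluster of its own. Of 38 barcodes that the stromal and thymocyte libraries share, 0 were mTEC2.

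Among all genes with a mean of at least 25 CPM over both labels, 931 of 6807 (13.7%) were at least 2-fold higher in mTEC2 than in mTEC1, and 813 (11.9%) at least 2-fold lower. The median ratio over all of them was 0.929. Against mTEC-prol, 775 of 6806 (11.4%) were at least 2-fold higher and 675 (9.92%) lower, with a median ratio of 0.884. The labels come from clustering and projection of these same genes, so the levels below describe the label and do not test it. A list gene counts as measured where it passed the same level of 25 CPM, and a gene that passed it through mTEC2 alone had to differ, so the counts of lists are descriptions too.

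Genes of other cell types were measured in the same cells. Of the 61 cells, 7 had at least 0.5% of their UMIs from a list of 8 mesenchymal genes, and these held 87.9% of all mesenchymal list UMIs in the label. The same limit took 47 mTEC1 cells and 1 mTEC-prol cell. As shares of each label these were 11.5% of mTEC2, 9.75% of mTEC1 and 1.32% of mTEC-prol. At least 3 UMIs of a list of 10 thymocyte genes were found in 13 mTEC2 cells, 16 mTEC1 cells and 3 mTEC-prol cells. Such cells made up 21.3% of mTEC2, 3.32% of mTEC1 and 3.95% of mTEC-prol. Rag1 was at 0 in mTEC2, and so were the dendritic and myeloid markers Itgax, Itgam, Xcr1, Clec9a and Flt3. Summed over its list, mesenchymal RNA stood at 2043 CPM in mTEC2, 1923 in mTEC1 and 204 in mTEC-prol, and 7 of 7 measured mesenchymal genes were at least 2-fold higher than in mTEC-prol, against 0 of 3 once the cells set apart below were left out. Thymocyte RNA stood at 190, 40.3 and 44.6 CPM, and myeloid and dendritic RNA at 479, 64.8 and 168, with 13 of its 18 genes found in mTEC2. B lineage RNA stood at 312, 204 and 158 CPM, with Cd79b and Ms4a1 at 0 in mTEC2, and endothelial RNA at 123, 73.5 and 47.5. Few genes of these lists were measured at 25 CPM: Ptcra of the thymocyte list and Lyz2 of the myeloid list were at least 2-fold higher than in both other labels, Aif1 than in mTEC1 and Vwf than in mTEC-prol. The part of these other cells in the results below was not tested. No doublet caller was run. Counts of genes are therefore also given, for the lists described in full, for the 39 mTEC2 cells of TEC-d below both limits, chosen after the data were seen and set against 213 mTEC1 and 66 mTEC-prol cells chosen alike.

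Aire had 410 UMIs in mTEC2, which is 468 CPM (exact Poisson interval 424 to 516). It had 3 UMIs in all 482 mTEC1 cells, a ratio of 1004 (341 to 4891) that was 602 as a mean over cells, 601 in TEC-d alone, 523 in the 39 cells and 304 with cells thinned to 5000 UMIs, and 201 UMIs or 147 CPM in mTEC-prol, a ratio of 3.19 (2.68 to 3.79). Intervals of levels and ratios are exact 95% intervals for counting error only. Per cell, Aire ran from 0 to 43 UMIs with a median of 2. Cells with an Aire UMI had a median depth of 17096 UMIs and those without one 7652, so a cell at 0 is not shown to lack Aire. Aire was rare in cells that should lack it. Among 8216 cells of the fibroblast labels TMC1 to TMC4 and capFb, with a median depth of 9006.5 UMIs, 29 or 0.353% had an Aire UMI, against 65.6% of mTEC2.

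Among regulators of promiscuous expression, Aire and Sirt1 were higher in mTEC2 than in both other labels, and most of the list was not. Of 14 genes of this list, all measured, 3 were at least 2-fold higher than in mTEC1 and 0 lower, with a median ratio of 1.08. The 3 were Aire, Fezf2 and Sirt1. Sirt1, a deacetylase known to act on Aire, had 179 CPM against 25.5 in mTEC1 and 52.7 in mTEC-prol. Fezf2, a second factor for self-antigen expression, had 232 CPM in mTEC2, 52.2 in mTEC1 and 244 in mTEC-prol. Its ratio to mTEC-prol was 0.949 (0.793 to 1.13), so no difference from mTEC-prol was detectable at this depth, while Aire differed there by more than counting error. Chd4, a chromatin remodeller, had 149 CPM in mTEC2 and 161 in mTEC1, an interval of the ratio from 0.763 to 1.11. Against mTEC-prol, Aire and Sirt1 were at least 2-fold higher. Top1 and Kat7 were at least 2-fold lower there, and the median ratio of the list was 0.854. In the 39 cells the counts were 3 higher and 1 lower of 14, and 2 and 2 of 14, and the ratio of Fezf2 to mTEC1 was 2.72 against 4.44 with all cells.

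Class II presentation was higher in mTEC2 than in either other medullary label. Of the 13 measured genes of the list, 9 were at least 2-fold higher than in mTEC1 and 1 lower, with a median ratio of 4.67. Against mTEC-prol 6 were higher and 0 lower, with a median ratio of 1.77. In the 39 cells the counts were 9 and 1 of 12, and 6 and 0 of 13. The 4 chains whose promoters are shown above had 6720 CPM for RT1-Da, 6924 for RT1-Db1, 5088 for RT1-Ba and 4419 for RT1-Bb. Their ratios lay between 5.04 and 7.71 to mTEC1 and between 2.63 and 3.12 to mTEC-prol. Cd74, the invariant chain that guards the groove, reached 9719 CPM against 2103 and 3877. Ciita had 58.3 CPM in mTEC2, 7.62 in mTEC1 and 32.9 in mTEC-prol.

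The proteases that trim the invariant chain went opposite ways against mTEC1. Ctss, the form known from dendritic and medullary cells, had 88.0 CPM in mTEC2 and 5.29 in mTEC1, a ratio of 16.6 (11.0 to 25.7). Ctsl, the form known from the cortex, had 128 CPM in mTEC2 and 760 in mTEC1, a ratio of 0.168 (0.138 to 0.203). Against mTEC-prol the ratio of Ctss was 3.64 (2.39 to 5.66), while that of Ctsl, at 0.711 (0.564 to 0.893), stayed within 2-fold. Class I presentation moved little by comparison. Of its 14 genes 1, the chaperone Calr, was at least 2-fold higher than in mTEC1, 0 were against mTEC-prol, and 0 were lower in either. With the 39 cells 1 was higher and 1 lower than in mTEC1, and 0 either way against mTEC-prol. B2m, the class I light chain, had 11809 CPM in mTEC2, 1.65 times mTEC1. It was the marker found in every cell, with 2 to 1011 UMIs and a median of 119.

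Costimulation followed class II. Of 12 genes in the list 8 were measured, and these 8 were at least 2-fold higher than in mTEC1, with a median ratio of 7.37, and 6 of 8 were higher than in mTEC-prol, with a median ratio of 2.34. In the 39 cells the counts were 6 of 7 and 5 of 8. Cd80, a ligand of CD28, had 118 CPM against 19.9 in mTEC1 and 51.2 in mTEC-prol, and was found in 35 cells. Cd86, the other ligand of CD28, had 86.8 CPM against 0.466 and 27.1, but 16 cells held it and 1 of them had 36.8% of its UMIs. Cd83, which steadies class II at the surface, had 488 CPM against 2.02 and 129, in 45 cells. Of the ligands of PD-1, Cd274 had 159 CPM against 27.4 and 66.6, and Pdcd1lg2 81.1 against 3.26 and 12.4. Icam1, an adhesion molecule, had 554 CPM against 92.3 and 270.

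The RANK and CD40 list separated mTEC2 from mTEC1 but hardly from mTEC-prol. Against mTEC1, 7 of 15 measured genes were at least 2-fold higher and 1 lower, with a median ratio of 1.75. Against mTEC-prol, 1 of 15 was higher and 0 lower, with a median ratio of 1.12. These counts were 5 and 1 of 15, and 1 and 0 of 15, in the 39 cells. The receptor gene of RANK, Tnfrsf11a, had 276 CPM in mTEC2, 51.3 in mTEC1 and 218 in mTEC-prol. Cd40 had 189, 76.8 and 174 CPM, and its ratio to mTEC-prol was 1.08 (0.882 to 1.33). Its ratio to mTEC1 fell from 2.45 to 1.58 in TEC-d alone and 1.51 in the 39 cells, which ends that call, and the ratio of Tnfrsf11a fell from 5.39 to 3.35 and 3.54. The gene past the fold against mTEC-prol was Traf1, an adaptor of TNF receptors, with 163 CPM against 32.2, a ratio of 5.08 (3.60 to 7.29). The lower gene against mTEC1 was Ltbr, the lymphotoxin receptor, with 25.1 CPM against 66.5.

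**Figure D1:**
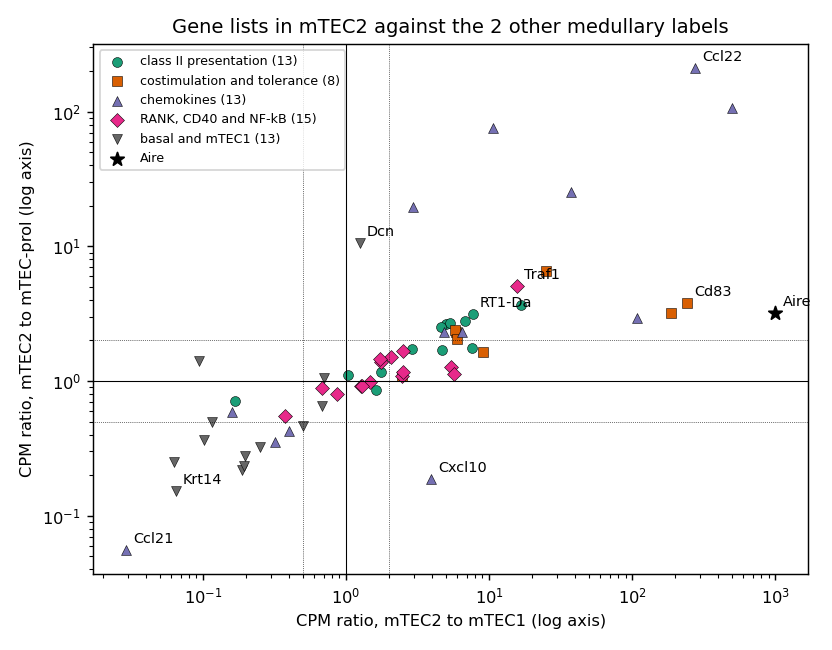
Each point is 1 gene of 5 lists with a mean of at least 25 CPM, placed by its CPM ratio of mTEC2 to mTEC1 (x) and to mTEC-prol (y), both on log axes, with dotted lines at 2-fold. The 4 class II chains, with ratios of 5.04 to 7.71 on x and 2.63 to 3.12 on y, lie up and right, the class II list gene Ctsl lies left at 0.168, and Ccl21 lies lowest on both axes.

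The chemokines split. Of 13 measured, 9 were at least 2-fold higher than in mTEC1 and 4 lower, and 8 were higher than in mTEC-prol and 4 lower. The 39 cells gave 8 and 2 of 12, and 8 and 3 of 12. Of the 9 genes higher than in mTEC1, several rested on few cells. Ccl17, Ccl20, Ccl25, Ccl2 and Ccl5 each had 81.4 to 93.8% of their mTEC2 UMIs in their 3 highest cells. Ccl22, Cxcl9, Cxcl10 and Cxcl11 had 28.0 to 50.4% there. Ccl22, a ligand of Ccr4, had 771 CPM in mTEC2, 2.80 in mTEC1 and 3.66 in mTEC-prol. Its ratio to mTEC-prol was 211 (89.9 to 651), resting on 5 UMIs there, and 38.3 as a mean over cells. Its ratio to mTEC1 was 276, and 146 in TEC-d alone. Ccl17, the other ligand of Ccr4, had 204 UMIs in mTEC2, but 12 cells held them and 1 cell had 76.0%. It had 0 UMIs in mTEC-prol, so mTEC2 was at least 106-fold higher, taking 3 UMIs as the floor. Cxcl11, a ligand of Cxcr3, had 526 CPM against 4.82 and 178. Cxcl10, which binds the same receptor, had 109 CPM in mTEC2 against 580 in mTEC-prol.

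Ccl21, the signature chemokine of mTEC1, was lower. It had 362 CPM in mTEC2 against 12495 in mTEC1 and 6515 in mTEC-prol, ratios of 0.0290 and 0.0556, and 1 mTEC2 cell held 52.4% of its UMIs. Ccl19, which shares the receptor Ccr7, had 1113 CPM against 3483 and 3144. Genes of basal and mTEC1 identity fell with it. Of 13, 9 were at least 2-fold lower than in mTEC1 and 0 higher, and 8 were lower than in mTEC-prol and 1 higher. The 39 cells gave 9 lower and 0 higher of 12, and 5 lower and 0 higher of 12. Krt14, a basal keratin, had 234 CPM against 3622 and 1549. Krt5, its partner, had 842 CPM against 3340 and 2622. The higher gene was Dcn, decorin, at 1616 CPM against 152 in mTEC-prol. Dcn is also a mesenchymal transcript. Its ratio to mTEC-prol fell from 10.6 to 2.58 without the cells at or above 0.5% mesenchymal list UMIs and to 1.35 in the 39 cells, which ends the call. Its ratio to mTEC1 was 1.25 with all cells and 0.578 without those cells.

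Division genes were mostly lower in mTEC2 than in mTEC-prol. Of 11 measured, 6 were at least 2-fold lower and 1 higher, and in the 39 cells 8 of 13 were lower and 1 higher. Against mTEC1, 2 of 5 were higher and 0 lower, and in the 39 cells 2 of 6 and 0. The ratio of Mki67, a mark of cycling cells, to mTEC1 was 2.55 (1.90 to 3.40), but 1.55 in TEC-d alone and 1.82 as a mean over cells, below the limit. It stayed above the limit in the 39 cells, at 2.02, and with cells thinned to 5000 UMIs, at 2.57. Without cells at or above 0.5% mesenchymal list UMIs it was 2.46, and without those with 3 or more thymocyte list UMIs 3.34. Mki67 had 74.3 CPM in mTEC2 against 348, and Top2a, a topoisomerase of dividing cells, 8.00 against 142. The higher gene was Cdkn1a, which arrests the cycle, with 104 CPM against 32.2. Interferon-stimulated genes were not raised as a list. Of 12, 1 was at least 2-fold higher than in mTEC1 and 4 lower, and 1 was higher than in mTEC-prol and 6 lower. The 39 cells gave 1 higher and 6 lower, and 1 higher and 5 lower. The higher gene was Ubd, a ubiquitin-like protein known also from the NF-kB response, with 783 CPM against 42.0 and 151.

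Shared epithelial genes were split, with 4 of 14 at least 2-fold higher than in mTEC1 and 4 lower, and 2 higher and 4 lower than in mTEC-prol. The 39 cells gave 5 higher and 3 lower, and 3 higher and 2 lower. Epcam, the epithelial adhesion protein, had 568 CPM in mTEC2 and 1459 in mTEC1. The tight junction gene Cldn3 had 103 CPM against 11.7 in mTEC1, and Cldn4 151 against 65.0. Of 6 measured genes of a cortical list, Ccl25, Tbata and Foxn1 were at least 2-fold higher than in mTEC1 and Cxcl12 and Ctsl lower, and Ccl25 and Tbata were higher than in mTEC-prol. Psmb11, the cortical proteasome subunit, had 0 of 875269 UMIs, and at 3 UMIs the limit is 3.43 CPM.

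Of the 61 mTEC2 cells, 17 had at least 10 Aire UMIs, 10 had at least 10 Ccl22 UMIs, and 1 had both. Taken singly, Aire was found in 40 cells and Ccl22 in 25. Both genes were found in 15 cells, Aire alone in 25, Ccl22 alone in 10 and neither in 11. Whether either overlap differs from unrelated placement was not tested. Ccl22 ran from 0 to 180 UMIs per cell with a median of 0, and 3 cells held 50.4% of it. The 17 cells with at least 10 Aire UMIs held 15 of the 675 Ccl22 UMIs. The 10 cells with at least 10 Ccl22 UMIs held 34 of the 410 Aire UMIs, of which 28 were in 1 cell and at most 2 in any other.

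**Figure D2:**
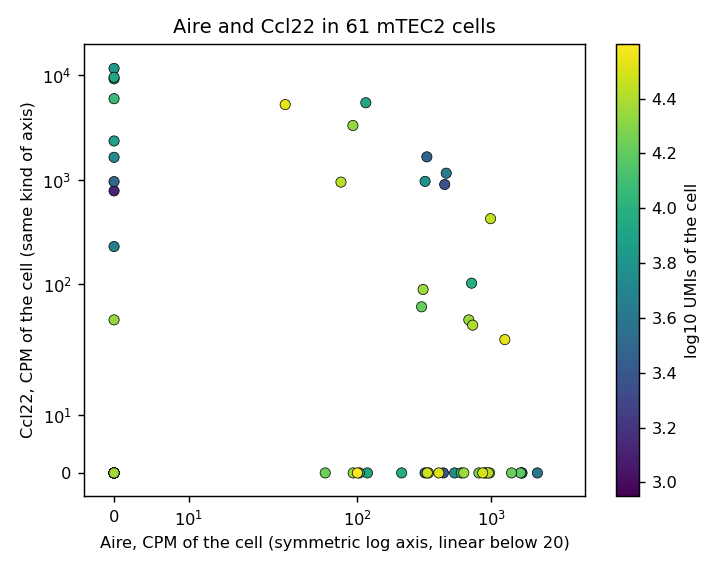
Each point is 1 of the 61 mTEC2 cells, with its Aire CPM (x) and Ccl22 CPM (y) on symmetric log axes that are linear below 20, coloured by depth. The cells above 2000 CPM of Ccl22 lie at 0 or low on the Aire axis, and most cells above 500 CPM of Aire lie at 0 on the Ccl22 axis.

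The 10 cells highest in Aire CPM and the 10 highest in Ccl22 CPM were compared, and shared 0 cells. Such an overlap was not tested either. These sets were chosen after the values were seen and on the genes shown, so the values describe them. Median depth was 18322 and 8047.5 UMIs. Class II was high in both, with RT1-Db1 at 9885 CPM in the Aire set, 7603 in the Ccl22 set and 5845 in the other 41 cells. Cd83 had 574, 1009 and 358 CPM. The RANK gene Tnfrsf11a was higher in the Aire set, with 444 CPM against 124 in the Ccl22 set, and so was Fezf2, with 396 against 44.3. Cd40 was not, with 314 CPM against 398. Ttn, the muscle protein titin, had 1799 and 177 CPM, and Tbata, a gene of thymic epithelium, 2813 and 177. Krt10, a keratin of the upper epidermis, had 1279 CPM in the Aire set against 8.85 in the Ccl22 set, where it rested on 1 UMI.

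The Ccl22 set was higher in B2m, with 27199 CPM against 10015 in the Aire set and 9372 in the others, and in Traf1, with 451 against 92.1. Its Ccl17 was 1629 CPM against 48.8, but 155 of its 184 UMIs were in 1 cell of cluster TEC-a. Both Krt8 and Krt18, keratins of simple epithelium, were found in 8 of its 10 cells and in 9 of the Aire set. Other epithelial genes were found in fewer cells of the Ccl22 set, Epcam in 7, Krt5 in 4, Krt14 in 2 and Krt10 in 1. In the Aire set these were found in 9, 8, 6 and 9 cells. Krt8 had a median of 9 UMIs per cell in the Ccl22 set and 37 in the Aire set. The 2 cells of the Ccl22 set with neither Krt8 nor Krt18 included the cell with most Ccl17. They came from cluster TEC-a, had 0 RT1-Da UMIs and held 78 of the 612 Ccl22 UMIs of the set. UMIs of a list of 18 myeloid and dendritic genes ran from 1 to 17 per cell in the Ccl22 set with a median of 6, and from 0 to 44 in the Aire set with a median of 1. These are counts not scaled to depth, although the Ccl22 set was shallower, at a median of 8047.5 UMIs against 18322. The part of such genes in the contrast was not tested.

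Single-organ genes were the next question, since promiscuous expression is what mTEC2 is known for. Of a list of 60 peripheral tissue antigens, 43 had a UMI in mTEC2, 26 in mTEC1 and 19 in mTEC-prol, although mTEC1 held 6432876 UMIs and mTEC2 875269. At an equal 800000 UMIs the expected numbers were 42.4, 13.1 and 16.3. In 23 of the 60 genes mTEC2 had the highest level of the 24 labels, resting on at least 3 UMIs. The share of all genes that meet this rule is not given here, so whether 23 of 60 is unusual was not tested. With 875269 UMIs in mTEC2, few UMIs can be enough to meet the rule. Of the 13 genes that passed the level filter against mTEC1, 9 were at least 2-fold higher and 4 lower, and the counts against mTEC-prol were the same. They were 11 and 2 of 14, and 11 and 4 of 15, in the 39 cells. The 4 lower genes were Reg3b, Reg3g, S100a8 and S100a9, proteins of epithelial defence. Over the whole list the sum was lower in mTEC2, at 1884 CPM against 2432 in mTEC1 and 2825 in mTEC-prol. With these 4 left out after the values were seen, it came to 1737 CPM in mTEC2, 63.4 in mTEC1 and 96.6 in mTEC-prol.

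The antigens were uneven between cells. Of the 32 list genes with at least 3 UMIs, 20 had over 50% of them in 1 cell. Ins2, an insulin gene, had 165 UMIs in 26 cells, with 93 in the highest. Sst, the hormone somatostatin, had 194 UMIs in 10 cells, with 72 in the highest. Tff3, a goblet cell peptide, had 373 UMIs in 4 cells, with 351 in 1 of them. Nppa, the atrial natriuretic peptide, had 109 UMIs in 5 cells, Avp, vasopressin, 73 in 2, and Gh1, growth hormone, 49 in 3. Mbp, a myelin protein, had 100 UMIs in 32 cells, the most of any list gene. A level of such a gene in mTEC2 is thus set by a few cells. The number of list genes per cell ran from 0 to 13 with a median of 3. In mTEC-prol it ran from 0 to 8, also with a median of 3, and in mTEC1 from 0 to 7 with a median of 2. At least 1 list gene was found in 95.1% of mTEC2, 96.1% of mTEC-prol and 81.3% of mTEC1 cells.

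The genes that stood out most from other labels were uneven too. Of 7184 genes with at least 20 UMIs in mTEC2, 185 (2.58%) were at least 10-fold above each of the other 23 labels of at least 20 cells. The same rule, chosen after seeing the data, gave 0 of 12689 genes for mTEC1 and 1 of 8680 for mTEC-prol. For the label next in number, Myeloid, it gave 117 of 11292 (1.04%). A floor of 20 UMIs is a lower level in a label with more UMIs. The UMIs of 1 cell also weigh less among 482 mTEC1 cells than among 61, so the counts of labels are not alike. In mTEC2 119 of the 185, or 64.3%, had over 50% of their UMIs in 1 cell, against 3.71% of the other 6999 genes with at least 20 UMIs. The rule can be met through 1 mTEC2 cell, and the other genes were not matched for UMIs. This contrast therefore follows in part from the rule and describes the genes it took. The median such gene was found in 5 cells, 70 in 3 cells or fewer, and 12 had 0 UMIs in the other labels. A cell held 0 to 71 of them with a median of 16. In the 39 cells the rule gave 135 genes, of which 112 were among the 185.

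Some led in many cells. Guca2b, the gut hormone uroguanylin, had 1043 UMIs in 42 cells, and Gucy2c, the receptor of that hormone, 185 UMIs in 28. Mt3, a metallothionein known from brain, had 587 UMIs in 33 cells. Myh7, a myosin of slow muscle and heart, had 100 UMIs in 29 cells. Tfap2b, a transcription factor, had 247 UMIs in 27 cells, and Calca, the calcitonin gene, 244 in 25. Tph1, which makes serotonin, had 240 UMIs in 23 cells, but 1 cell held 59.6%.

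**Figure D3:**
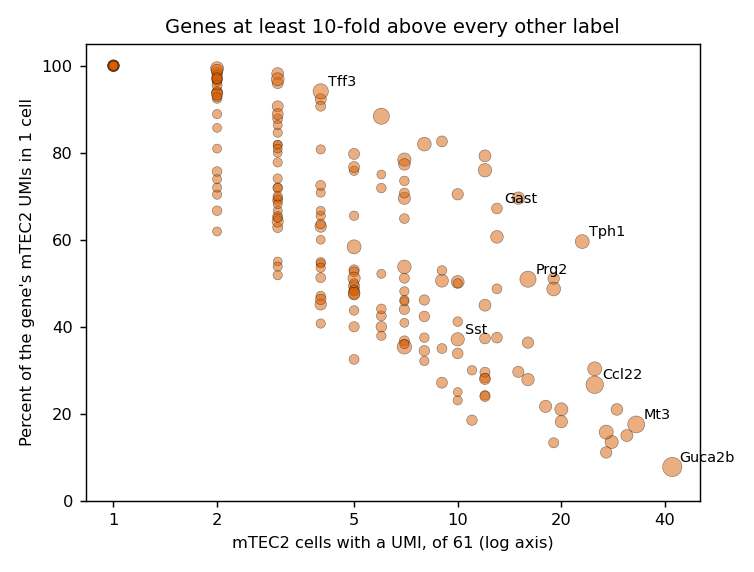
Each of the 185 points is a gene at least 10-fold above every other label, with the number of mTEC2 cells that hold it (x, log axis) and the percent of its mTEC2 UMIs in 1 cell (y), and an area that grows with its CPM. Guca2b lies at 42 cells and 7.77%, while Tff3 lies at 4 cells and 94.1%.

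Among genes with at least 50 UMIs in at least 25% of the mTEC2 cells, those with high ratios to the label with the higher level were, beside Ccl22, Tnni1, a slow muscle troponin, Tfap2b, Tph1, Cyp2c23, a cytochrome P450, and Prg2, an eosinophil granule protein. Tnni1 had 80.0 CPM, at least 171-fold above mTEC1 with 2 UMIs, and at least 36.4-fold above mTEC-prol with 0 UMIs, so its place among these genes is not fixed. Cyp2c23 had 160 CPM and 1 UMI in each of the other labels, and Prg2 550 CPM against 1.87 and 8.05. Others by the same rule were Sncg, Retnlg, Gucy2c, Nos2, Nostrin, Ly6c, Calca, Il12a and Folr1, at ratios of 24.2 to 56.6 to the higher of the other labels. Some of these levels were set by few cells. Tph1, Prg2 and Retnlg had 59.6, 50.9 and 52.3% of their mTEC2 UMIs in 1 cell. The rest of the genes high by this rule had 13.5 to 48.1% there. The lowest were Reg3b, Reg3a, Tnc, Acta2, Fgfr2, Ccl21, Pdgfc, Aoc1, Cyp1b1 and S100a8. Reg3b had 3.43 CPM in mTEC2, 594 in mTEC1 and 641 in mTEC-prol. Tnc, the matrix protein tenascin, had 4.57 CPM against 464 and 192, and Fgfr2, a receptor for epithelial growth factors, 5.71 against 140 and 113.

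Lineage genes of the mimetic cells, which resemble cells of other organs, were mixed, and few passed 25 CPM. At least 2-fold higher than in mTEC1 were 2 of 3 muscle genes, 2 of 2 enterocyte and microfold, 1 of 2 ionocyte, 3 of 4 keratinized and 0 of 1 tuft genes, and 1, the keratin Krt13, was lower. Against mTEC-prol these were 2 of 2, 1 of 3, 2 of 2, 2 of 4 and 0 of 1, with Krt13 lower. Of 4 keratinized genes 0 were lower in the 39 cells, in either comparison. Myog, the muscle factor myogenin, had 70.8 CPM in 17 cells against 0.311 and 10.2 CPM. Insm1, a neuroendocrine factor, had 167 CPM against 17.7 in mTEC1 and 133 in mTEC-prol. Spib, a factor of microfold cells, had 82.3 CPM against 19.0 and 106. Ptcra, a chain of the pre-T cell receptor that is on the thymocyte list, had 60 UMIs in 23 cells, of which 33.3% were in 1 cell. That cell held 37 thymocyte list UMIs, 20 of them Ptcra. The ratio of Ptcra to mTEC-prol was 2.76 (1.78 to 4.33) with all cells, from 60 and 34 UMIs. Without cells holding 3 or more thymocyte list UMIs, a limit that counts Ptcra itself, it was 4.50 (1.73 to 13.1). That value rested on 15 and 7 UMIs. Both intervals lay above 1 and overlapped, so no change of the ratio on leaving these cells out is shown. The ratio to mTEC1 was 147 (47.9 to 733), from 60 and 3 UMIs. Without these cells it was at least 50.3, from 15 and 0 UMIs. In the 39 cells 0 thymocyte list genes were measured.

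Each mTEC2 cell did not show more genes than other cells. At 5000 UMIs per cell, the 49 cells deep enough had a median of 2302 genes (range 1068 to 2694), against 2369 in 410 mTEC1 cells and 2468 in 68 mTEC-prol cells. This left out 12, 72 and 8 shallower cells, and without thinning the medians were 4200, 4038 and 4821.5. The mTEC2 median was number 19 of the 24 labels. The cells summed did show more. At 800000 UMIs of a label, the expected number of genes was 18129 in mTEC2, 15870 in mTEC-prol and 15730 in mTEC1, and mTEC2 was highest of the 18 labels with that many UMIs. For the 39 cells at 450000 UMIs it was 16330, against 14266 in mTEC1 and 14383 in mTEC-prol chosen alike.

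**Figure D4:**
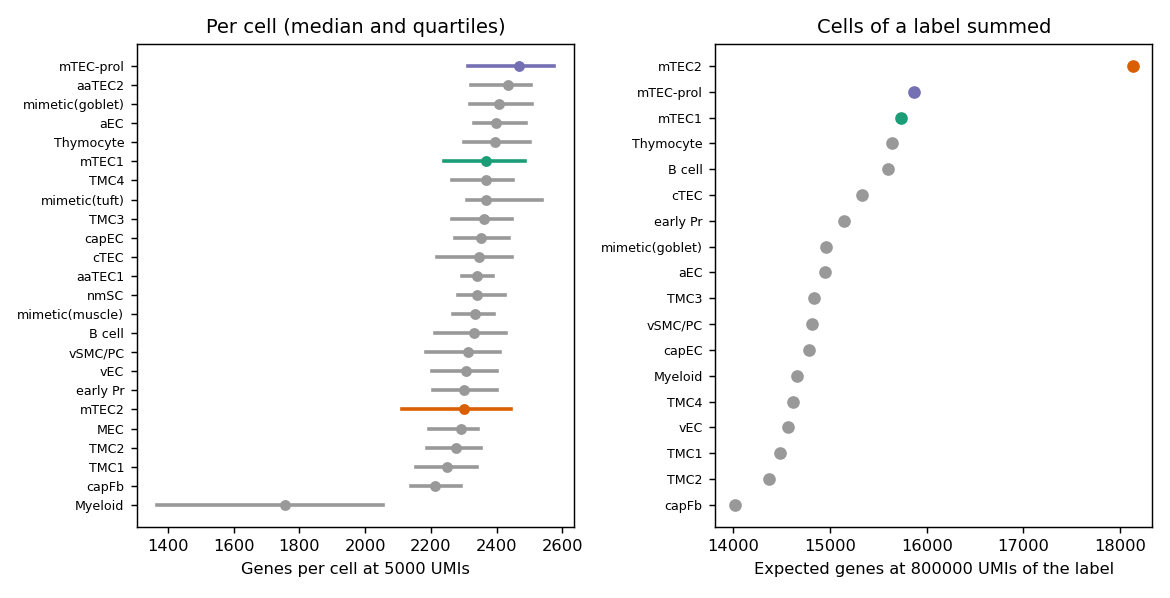
Left, genes per cell at 5000 UMIs for 24 labels, with points at the median and lines between quartiles; right, the expected number of genes when the cells of a label are summed and thinned to 800000 UMIs, for 18 labels. The mTEC2 label (orange) is number 19 on the left and number 1 on the right, at 18129 genes.

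In the section, the authors estimated up to 3 cell types for each bin, a square of 10 µm, with RCTD (robust cell type decomposition). A bin can hold several cells, and gene counts per bin were not analysed here, so these labels could not be set against Aire or Ccl22. Of 592087 labelled bins, 6562 had mTEC2 in first place. Of these 29 were given 1 type, and in 92.7% of the rest the second label had the larger weight. The median weight of mTEC2 was 0.348, against 0.412 for mTEC1 and 0.432 for mTEC-prol, so these bins were mostly estimated as mixtures. The authors' confidence flag covered 55.8% of the first labels, against 42.7% for mTEC1 and 50.5% for mTEC-prol.

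The authors split the medulla into areas labelled mECA and mEFA, read here, from the title of the study, as medulla with and without epithelium. Of these and the areas outside, mECA had the mTEC2 label most often. It made up 8.96% of the bins there (exact Clopper-Pearson interval 8.68 to 9.24), 2.04% (1.84 to 2.24) in mEFA, 0.499% in the cortex and 0.427% in the capsular area. Dividing the share in mEFA by that in mECA gave 0.227 (0.205 to 0.252) for mTEC2, 0.232 (0.210 to 0.257) for mTEC-prol and 0.577 (0.521 to 0.638) for mTEC1. By first labels mTEC1 was on more bins of mEFA than mTEC2, with 465 against 394, and on fewer of mECA, with 1674 against 3599. With labels counted in every place, mTEC2 was on more bins of mEFA too, with 4054 against 2392, so that order depends on the first label. How the authors drew the areas is not given in the sources used here, and the part of that choice in these shares was not tested. A deposited score for medullary epithelium was above 0 in 36.6% of mECA bins and 13.3% of mEFA bins. With mTEC2 counted wherever it was named in a bin, mECA had it in 30.8% of bins and mEFA in 20.9%, a ratio of 0.680.

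Outside the medulla mTEC2 was the first label of 2569 bins. Of these 48.2% lay within 50 µm of a medullary bin, against 40.1% for mTEC1, 40.1% for mTEC-prol and 8.26% of all labelled bins outside. Their median distance to the medulla was 58.3 µm, against 255 µm for all.

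**Figure D5:**
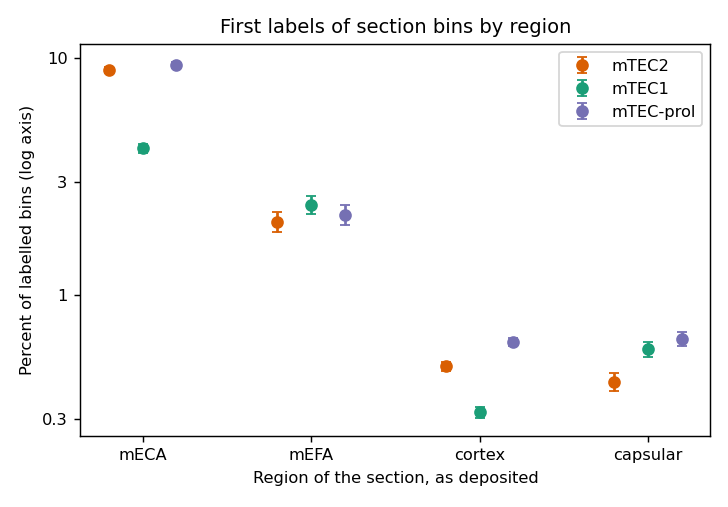
Percent of labelled bins (log axis) with each of 3 medullary epithelial labels in first place, by region, with exact 95% intervals for counting error. mTEC2 stands at 8.96% in mECA and 2.04% in mEFA, while mTEC1 stands at 4.17% and 2.40%.

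Bins labelled mTEC2 lay near each other. Within 30 µm of such bins in the medulla, 14.6% of labelled bins were mTEC2, against 6.71% of the medulla, a ratio of 2.18. Within mECA alone, an alternative chosen after seeing the data, the ratio was 1.79. The same measure was 1.83 for mTEC1 around mTEC1 and 2.00 for mTEC-prol around mTEC-prol. mTEC2 bins were also more frequent around mTEC-prol, at 11.7% and a ratio of 1.74, than around mTEC1, at 8.32% and a ratio of 1.24. Around mTEC2, mature CD4 labels made up 10.1% against 12.9% of the medulla, while around mTEC1 they made up 12.8% and around mTEC-prol 10.1%. The agonist-selected and Treg labels made up 29.5% around mTEC2 against 30.1%. Neighbouring bins are counted repeatedly and can share RNA and tissue, so no interval is given.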

How the data were processed

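Samples were grouped by their labels, with 1 sample per group. For each barcode the authors deposited unnormalized counts of UMIs by gene, and UMIs and genes per bin are counts deposited by the authors. The submitters' processing notes name Cell Ranger 8.0.0, Seurat 5.3.0 and build mRatBN7.2, and the annotation is not given in the sources used here. The deposited percent of mitochondrial UMIs was used to describe cells alone. The deposited RCTD weights are fractions, and the score for medullary epithelium was deposited by the authors and is given as a share of bins above 0.

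UMIs were summed per label. A ratio against fewer than 3 UMIs was taken against 3. Genes with a mean of at least 25 CPM over both labels were compared, with a limit of 2-fold. The mTEC2 members and the 23 gene lists (316 genes, 4 of them absent from the files; 1 more is not reported here) were chosen with earlier results of these data known. The text may name any list gene, and beside these the 15 highest and 10 lowest genes by ratio to both other labels with at least 50 UMIs and found in at least 25% of cells (for the lowest, of both other labels), leaving out identifiers. Genes 10-fold above every other label were named after their values were seen. Thinning used expected numbers of genes or draws with seed 7. Bins were converted at 0.5 µm per unit, with 20 units per bin. The 2-fold rule and the thinning were tested on simulated data. The work ran in Python 3.11.15. NumPy 2.4.6 and pandas 2.3.3 did the sums, intervals came from SciPy 1.17.1, and plots from matplotlib 3.10.9.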

Additional observations from a re-analysis of the deposited data

Results flagged for a closer look

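The stromal library also held 2934 barcodes without an annotation, which enter no comparison. Their Aire level was 28.05 CPM, from 243 UMIs, against 4.98 CPM in the annotated cells, which drew attention as signal outside the data used. Of these barcodes 51 had an Aire UMI. A set of 67 had more genes than any annotated cell, whose largest number is 6999, and 11 of these held 161 of the Aire UMIs, or 66.3%. The 11 barcodes had 329 CPM of Aire, 723 of Epcam and 12848 of the 4 class II chains summed, against 468, 568 and 23151 in mTEC2. Their median depth was 40156 UMIs, against 13378 in mTEC2, and 1 of them held all 141 of their Ccl22 UMIs. The other 40 held 82 Aire UMIs, with a median of 1. Whether the 11 are single cells was not tested.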

How the results depend on the processing

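No paired analysis was possible because no condition has a second sample. Of 426 recomputed values 286 stayed within the limits set for them, 137 moved and 3 reversed. The number of genes at least 2-fold higher and lower than in mTEC1 was 1695 and 1408 at a mean of at least 10 CPM, 532 and 472 at 50 CPM, and 6223 and 1925 with no filter. Against mTEC-prol these were 1573 and 1224, 409 and 370, and 3429 and 1674, and with cells thinned to 5000 UMIs 1038 were lower. A limit of 4-fold gave 530 and 206 against mTEC1 and 386 and 132 against mTEC-prol. The ratio of Dcn to mTEC1 fell from 1.25 to 0.578 without mesenchymal cells and 0.324 in the 39 cells. The cause was not tested.

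In the section, the percent of mECA bins was 0.0630 for bins given 1 type, 19.5 for confident labels, 30.8 for any place and 8.05 for segmented cells. The ratio of mEFA to mECA was 0.190, 0.680 and 0.359 for the last 3 of these, with no value for bins given 1 type, and 0.268 and 0.188 left and right of the median x coordinate. The ratio of cortex to mECA was 0.0847, 0.0292, 0.148 and 0.155 in the same order, and 0.110 in deeper bins. The neighbourhood ratio was 2.94 at 15 µm, 1.64 at 60 µm, 1.90 in deeper bins, 1.79 in mECA alone and 0 for bins given 1 type, from 4 neighbours. Taking cells by cluster name gave no value, since no cluster is named mTEC2.

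The limit of 4-fold, the restrictions to TEC-d, to the 39 cells and to cells with few mesenchymal UMIs, and mECA alone were chosen after seeing the data. The 61 cells of 1 library give no spread between animals.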
